A study of Rattus norvegicus with 12 samples.

Results

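The enzymes that write and erase DNA methylation were followed across 6 rat cell lines and cultures. The group listed 8 genes. Dnmt1 and Uhrf1 stand for maintenance, Dnmt3a, Dnmt3b and Dnmt3l for de novo methylation, and Tet1, Tet2 and Tet3 for demethylation. Members were the probe sets whose single gene symbol in the platform's gene table was one of these, which gave 7 genes and 10 of the 31099 probe sets on the array. Dnmt3l was not analysed here. Dnmt3a had 2 probe sets, Tet3 had 3 and each other gene had 1. Each gene was represented by its brightest probe set on average, and all 7 genes passed the filter on dim genes, among 11001 tested of 14218.

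DNA methylation in mammals sits mainly on the cytosine of CG pairs. During replication UHRF1 recognises DNA methylated on 1 strand only and brings DNMT1, which restores the mark, whereas DNMT3A and DNMT3B place it on unmethylated sites and DNMT3L, which has no catalytic activity, assists them. The TET dioxygenases oxidise methylcytosine, and the oxidised bases are lost by dilution or cut out by base excision repair. In mouse pluripotent cells Tet1 and Tet2 are the expressed TET genes, and kinase inhibitor media are known to lower the de novo enzymes and UHRF1 protein.

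The study asked whether rat induced pluripotent stem (iPS) cells, made with a transposon system, resemble rat embryonic stem (ES) cells in gene expression. A1 and A2 were labelled as iPS lines of the FHH rat strain. DAC2 and DAC8 were labelled as ES lines, with no strain given. REF1 and REF2 were labelled as FHH embryonic fibroblast (EF) cultures from embryos of age e14.5. Per the labels' protocols the iPS lines were grown on mitotically inactivated mouse fibroblasts. The iPS and ES lines were kept in medium with kinase inhibitors (2i) and the fibroblasts in fibroblast medium, so cell type and medium cannot be told apart. Cells were harvested 5 days after passage for the iPS and ES lines and 6 days after it for the EF cultures. Each line had 2 arrays, and the labels do not say whether these came from separate cultures, so p-values between lines measure only the spread between arrays. Levels below are deposited log2 RMA signals, in which 1 unit is a 2-fold difference. The number of arrays limits their precision.

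The arrays labelled DAC8 and REF2 went against their labels. Those of A1 and A2, labelled iPS, held neural markers and few naive pluripotency markers. Every line is named below as labelled and no line was moved, so the name iPS lines gives the label only. A marker gene was counted as present at a level of 5 or more. All 10 fibroblast markers were present in DAC8 and in REF1, whereas 2 were present in DAC2 and 1 in REF2. Of 7 naive pluripotency markers with a probe set, 7 were present in DAC2 and in REF2, 3 in DAC8, 4 in REF1, 2 in A1 and 3 in A2. All 6 epithelial markers were present in DAC2 and REF2 and none in the other lines. All 10 neural markers were present in A1 and A2, with a median level of 10.69 and 10.65, against 7 in DAC8 and REF1, 3 in DAC2 and 4 in REF2. The median of the naive markers was 4.87 in A1 and 4.89 in A2, against 10.28 in DAC2 and 9.96 in REF2. In such bulk RNA, fewer cells of a type and less RNA per cell cannot be told apart.

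A gene was called between lines at an adjusted p under 0.05 (limma, Benjamini-Hochberg over 11001 genes) with a difference of at least 2-fold. Every one of the 7 genes differed among the 6 lines under limma's F test with a range of line means of at least 1 unit, as did 63.5% of all genes tested. The range was widest for Tet1 at 3.96 units, then Tet2 at 3.49, Uhrf1 at 2.80, Dnmt3a at 2.01, Dnmt3b at 1.99, Dnmt1 at 1.5 and Tet3 at 1.30. Without the lines labelled DAC8 and REF2, 5 of 7 were still called with a range of at least 1 unit, as were 56.7% of all genes, and Dnmt3a and Tet3 did not. Over the 15 pairs of lines, 51 of the 105 gene and pair combinations were called, against 27.9% over all genes. The 51 include calls of Dnmt3b, which passed the filter only through DAC2 and REF2. The pairs without DAC8 and REF2 held 17 calls in 42 combinations in a fit without those lines, against 27.8% over all genes.

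**Figure D1:**
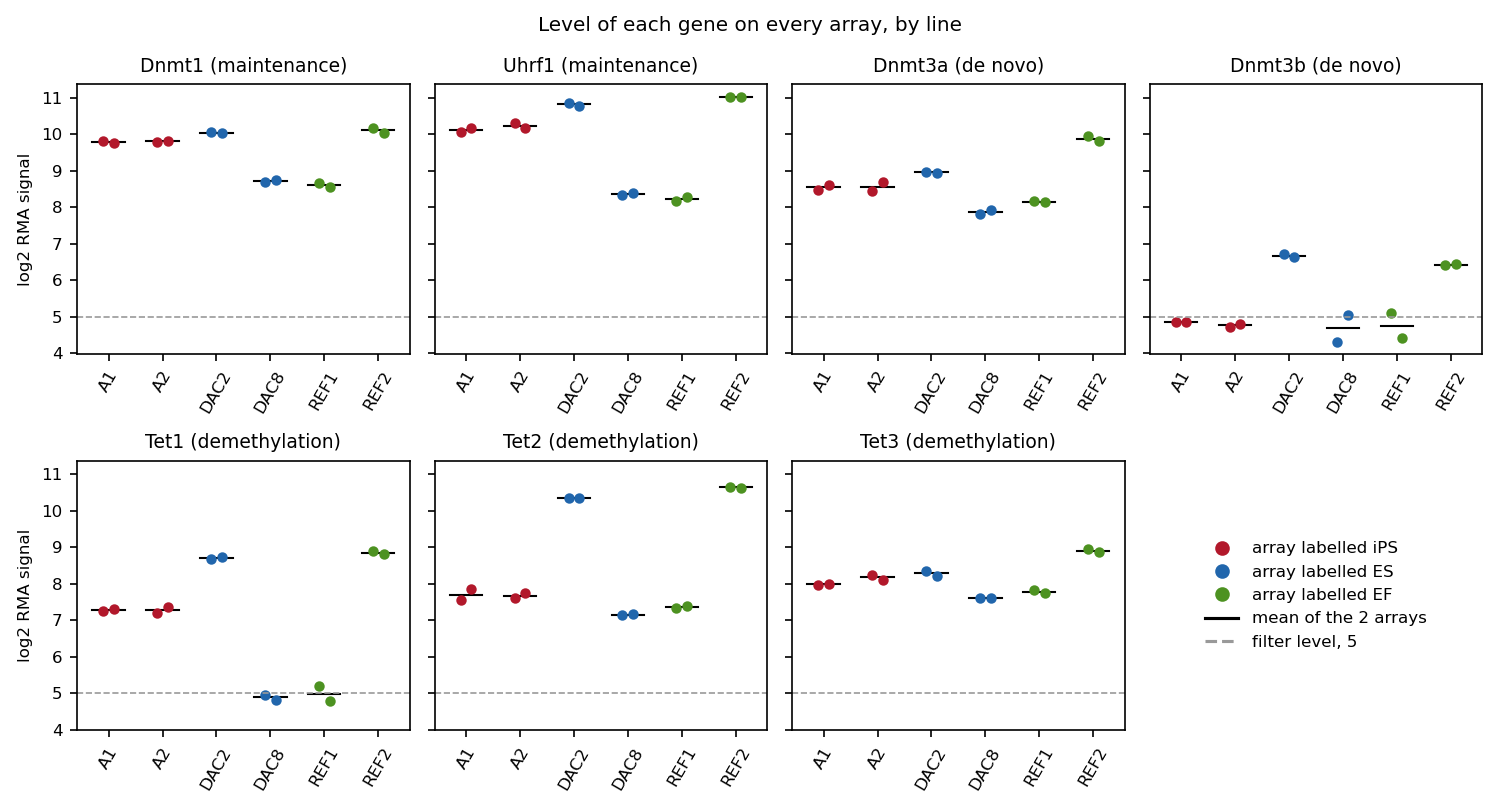
Level of each gene on every array (log2 RMA signal, vertical axis) by line (horizontal axis), with arrays coloured by labelled cell type, a bar at the mean of the 2 arrays and a dashed line at the filter level of 5. The arrays of DAC2 and REF2 lie highest for Uhrf1, Dnmt1, Dnmt3a, Dnmt3b, Tet1 and Tet2. Those of DAC8 and REF1 lie lowest for Uhrf1, Dnmt1, Dnmt3a, Tet1, Tet2 and Tet3.

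The maintenance genes were high in the iPS lines, slightly higher in DAC2 and REF2, and low in DAC8 and REF1. Uhrf1 read 10.07 and 10.18 in A1, 10.30 and 10.16 in A2, 10.87 and 10.77 in DAC2, 8.34 and 8.38 in DAC8, 8.16 and 8.29 in REF1, and 11.03 and 11.02 in REF2. All arrays of DAC2 and REF2 lay above those of the iPS lines, which lay above those of DAC8 and REF1. Uhrf1 was 3.74-fold higher in A1 than in REF1 (1.90 ± 0.07 log2 units, SE, n = 2 arrays per line, limma adjusted p = 1.37e-08) and 1.62-fold lower in A1 than in DAC2 (-0.69 ± 0.07, limma adjusted p = 1.93e-05), the latter under the 2-fold minimum. Neighbours in the order that were not called apart were REF2 and DAC2, DAC2 and A2, A2 and A1, and DAC8 and REF1, so that the single called step lay between A1 and DAC8.

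Dnmt1, the maintenance methyltransferase itself, followed the same order with smaller steps. It read 9.82 and 9.77 in A1, 9.79 and 9.83 in A2, 10.07 and 10.03 in DAC2, 8.70 and 8.75 in DAC8, 8.67 and 8.55 in REF1, and 10.16 and 10.05 in REF2. The arrays of DAC8 and REF1 lay more than 1 unit below those of the other lines. Dnmt1 was 2.28-fold higher in A1 than in REF1 (1.19 ± 0.06, limma adjusted p = 1.17e-07) and 1.19-fold lower than in DAC2 (-0.25 ± 0.06, limma adjusted p = 0.0049). A1 and A2 differed by -0.01, with a 95% interval from -0.16 to 0.13.

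The promoters of both maintenance genes are shown because their transcripts were ordered alike over the 6 lines while the sequences differed in E2F words, the short sites of the E2F factors that drive S phase genes. Each is the 250 bases before a RefSeq transcript start in the assembly GRCr8, read 5′ to 3′ on the gene's strand, with E2F words in capitals. The Uhrf1 window, 1 of 3 and chosen because it held the words, is chr9:1222936-1223185 (plus strand) and the Dnmt1 window is chr8:27762842-27763091 (minus strand).
Uhrf1: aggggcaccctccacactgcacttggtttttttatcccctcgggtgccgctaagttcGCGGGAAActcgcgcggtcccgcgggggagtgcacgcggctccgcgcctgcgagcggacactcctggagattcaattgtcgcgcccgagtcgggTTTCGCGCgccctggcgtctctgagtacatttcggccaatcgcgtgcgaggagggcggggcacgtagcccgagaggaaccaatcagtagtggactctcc
Dnmt1: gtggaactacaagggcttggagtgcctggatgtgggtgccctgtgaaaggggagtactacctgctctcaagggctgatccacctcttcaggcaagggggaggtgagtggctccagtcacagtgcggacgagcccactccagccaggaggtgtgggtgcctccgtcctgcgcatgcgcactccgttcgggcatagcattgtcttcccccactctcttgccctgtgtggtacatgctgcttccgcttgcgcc
The words searched on both strands were TTTCCCGC, TTTCGCGC, TTTGCCGC and TTTGGCGC, of which only matches at different positions were counted. The Uhrf1 window shown held TTTCGCGC on the gene's strand, starting 99 bases before the transcript start, and TTTCCCGC on the other strand, with its farthest base 193 bases before it. RefSeq gave 3 windows for Uhrf1, and the other two held none of the words and 6 and 11 CG pairs. A match was present in 580 of 33469 windows of the same length (1.73%) and in 1 of the 14 windows of the group's genes. These 14 windows covered 7 of the 8 genes, with no Dnmt3b entry. The core site of the naive pluripotency factor ESRRB, AAGGTCA, was found in none of the 14 and in 3.99% of all windows. The Uhrf1 window shown held 30 CG pairs and the Dnmt1 window 9, against a median of 5 over all windows, and the Tet2 window held 38. These matches are descriptions of the letters in the windows and no binding was measured.

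The de novo genes both read highest in DAC2 and REF2. In the other lines Dnmt3b was too dim for its pattern to be compared with that of Dnmt3a. Dnmt3a, the de novo enzyme of most somatic tissues, read 8.47 and 8.62 in A1, 8.45 and 8.68 in A2, 8.97 and 8.95 in DAC2, 7.81 and 7.93 in DAC8, 8.16 and 8.14 in REF1, and 9.96 and 9.80 in REF2. REF2 stood above every other line, and the iPS lines lay between DAC2 and REF1. Dnmt3a was 2.53-fold lower in A1 than in REF2 (-1.34 ± 0.09, limma adjusted p = 8.69e-07), but 1.33-fold lower than in DAC2 (-0.42 ± 0.09, limma adjusted p = 0.0026) and 1.31-fold higher than in REF1 (0.39 ± 0.09, limma adjusted p = 0.0035). The difference between DAC2 and REF2, -0.92, missed the 2-fold minimum and passed it without REF2 replicate 2 (-1.0, limma adjusted p = 0.000473).

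Dnmt3b, the de novo enzyme most abundant in early embryos, was measured clearly in only DAC2 and REF2. It read 4.84 and 4.86 in A1, 4.72 and 4.80 in A2, 6.71 and 6.63 in DAC2, 4.32 and 5.04 in DAC8, 5.09 and 4.42 in REF1, and 6.40 and 6.43 in REF2. The arrays of DAC2 and REF2 lay above all arrays of the other 4 lines, which together ran from 4.32 to 5.09. Dnmt3b was 3.53-fold lower in A1 than in DAC2 (-1.82 ± 0.24) and 3.76-fold lower in A2 (-1.91 ± 0.24). It passed the filter only through DAC2 and REF2, so its differences from the other lines are a description, also where counted as calls. With line means under 5 in A1, A2, DAC8 and REF1, the lower side of these folds lies among dim signals, where RMA compresses differences. A1 and REF1 differed by 0.10, with an interval from -0.45 to 0.64.

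Among the TET genes, Tet1 took 3 distinct levels. Tet1, the oxidase with a CXXC domain that is abundant in pluripotent and germ cells, read 7.26 and 7.31 in A1, 7.20 and 7.36 in A2, 8.68 and 8.72 in DAC2, 4.96 and 4.81 in DAC8, 5.21 and 4.77 in REF1, and 8.88 and 8.80 in REF2. The iPS lines lay apart from all other lines, below DAC2 and REF2 and above DAC8 and REF1. Tet1 was 2.67-fold lower in A1 than in DAC2 (-1.41 ± 0.13, limma adjusted p = 5.34e-06) and 4.92-fold higher than in REF1 (2.30 ± 0.13, limma adjusted p = 1.44e-07). DAC2 was 13.1-fold above REF1, whose line mean of 4.99, like that of DAC8 at 4.89, was under the filter level.

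Tet2, the TET gene that lacks a CXXC domain of its own, was high in DAC2 and REF2 alone. It read 7.54 and 7.84 in A1, 7.60 and 7.74 in A2, 10.36 and 10.36 in DAC2, 7.13 and 7.17 in DAC8, 7.34 and 7.39 in REF1, and 10.67 and 10.63 in REF2. The iPS arrays lay just above those of DAC8 and REF1 and far below the rest. Tet2 was 6.34-fold lower in A1 than in DAC2 (-2.67 ± 0.09, limma adjusted p = 6.65e-09) and 6.45-fold lower in A2 (-2.69 ± 0.09, limma adjusted p = 6.26e-09). Against REF1 it was 1.25-fold higher in A1 (0.33 ± 0.09, limma adjusted p = 0.0086), under the 2-fold minimum.

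Tet3, the TET gene known from the oocyte and from neurons, varied least. It read 7.97 and 8.0 in A1, 8.25 and 8.11 in A2, 8.35 and 8.21 in DAC2, 7.61 and 7.62 in DAC8, 7.82 and 7.75 in REF1, and 8.95 and 8.87 in REF2. Only REF2 stood clearly apart, and arrays of A2 overlapped those of DAC2. Tet3 was called lower in DAC8 than in REF2 (-1.30, 2.46-fold, limma adjusted p = 9.53e-08) and in REF1 than in REF2 (-1.12, 2.18-fold, limma adjusted p = 2.62e-07), but with the mean of its probe sets these became -0.98 and -0.93 and fell under 2-fold.

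**Figure D2:**
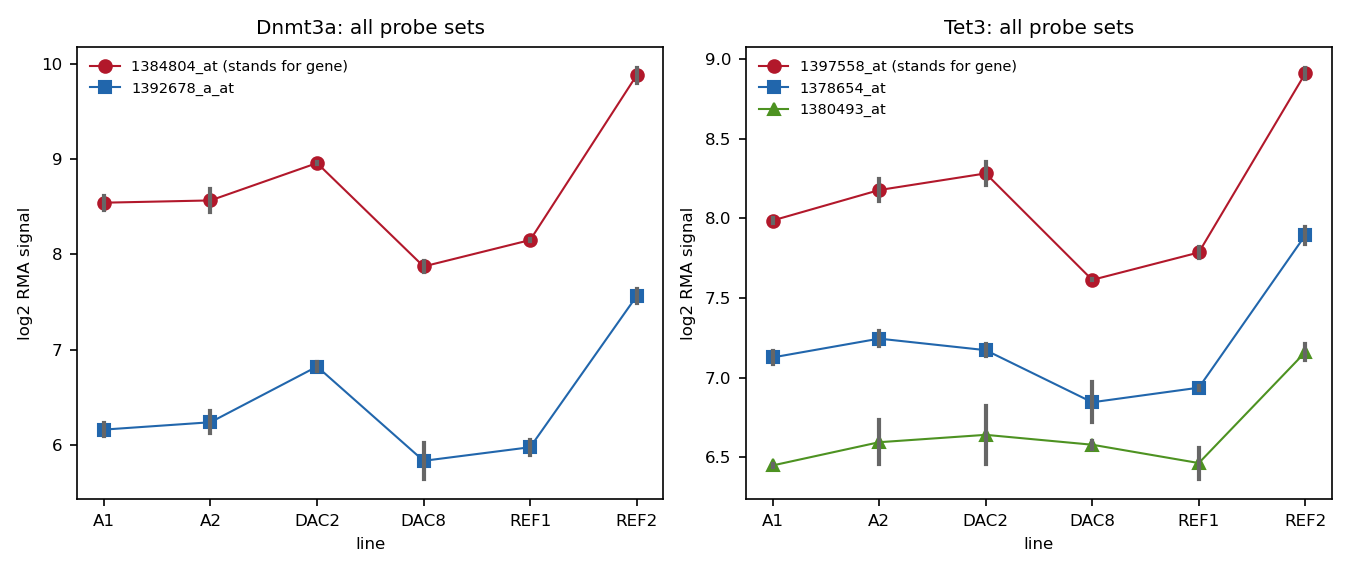
Line means (log2 RMA signal, vertical axis) of all probe sets of Dnmt3a and Tet3 by line (horizontal axis). Grey bars run between the values of the 2 arrays, and lines are drawn only to join points of a probe set. REF2 is highest for all 5 probe sets, and the dimmest Tet3 probe set is nearly level in the other lines.

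The second Dnmt3a probe set (1392678_a_at) had line means of 6.16, 6.24, 6.82, 5.83, 5.97 and 7.56 in A1, A2, DAC2, DAC8, REF1 and REF2, the same order as the first (1384804_at). The 3 Tet3 probe sets placed REF2 highest. Of the 10 probe sets, 9 were called over the 6 lines at probe set level, as were 63.3% of all probe sets tested. The exception was the Tet3 probe set 1380493_at, whose line means ran from 6.45 to 7.16.

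The 2 iPS lines read much alike. None of the 7 genes was called between A1 and A2, as against 0.218% of genes called in either direction, and with limma 1 gene (Tet3, -0.19) had an unadjusted p under 0.05, as did 13.9% of all genes. The widest interval was that of Dnmt3b, from -0.45 to 0.64.

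The iPS lines were lower than DAC2 in 3 genes, Dnmt3b, Tet1 and Tet2, and called higher in none. Dnmt3b, which passed the filter only through DAC2 and REF2, is among them as a description. The share of all genes called lower was 13.2% for A1 and 13.6% for A2. At a bare adjusted p under 0.05, all 7 genes were lower in A1 than in DAC2 and 6 were lower in A2. In either direction 78.1% and 78.8% of all genes passed that cut, and the share that was lower was not counted. Differences for Dnmt1, Uhrf1, Dnmt3a and Tet3 lay between -0.69 and -0.10 in both lines. Against REF2 the same 3 genes and Dnmt3a were lower, which was 4 of 7 beside 14.9% of all genes for A1 and 15.2% for A2.

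Against REF1 the iPS lines were higher in 3 genes, Uhrf1, Dnmt1 and Tet1, beside 16.5% of genes called higher for A1 and 16.4% for A2. Against DAC8 these 3 genes were again higher, beside 15.6% for A1 and 15.6% for A2. Dnmt3a, Tet2 and Tet3 differed by 0.20 to 0.69 in these comparisons, under 2-fold, and Dnmt3b by 0.01 to 0.17. All of these comparisons share the arrays of A1 and A2, so they are given side by side and not as repeats of each other.

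**Figure D3:**
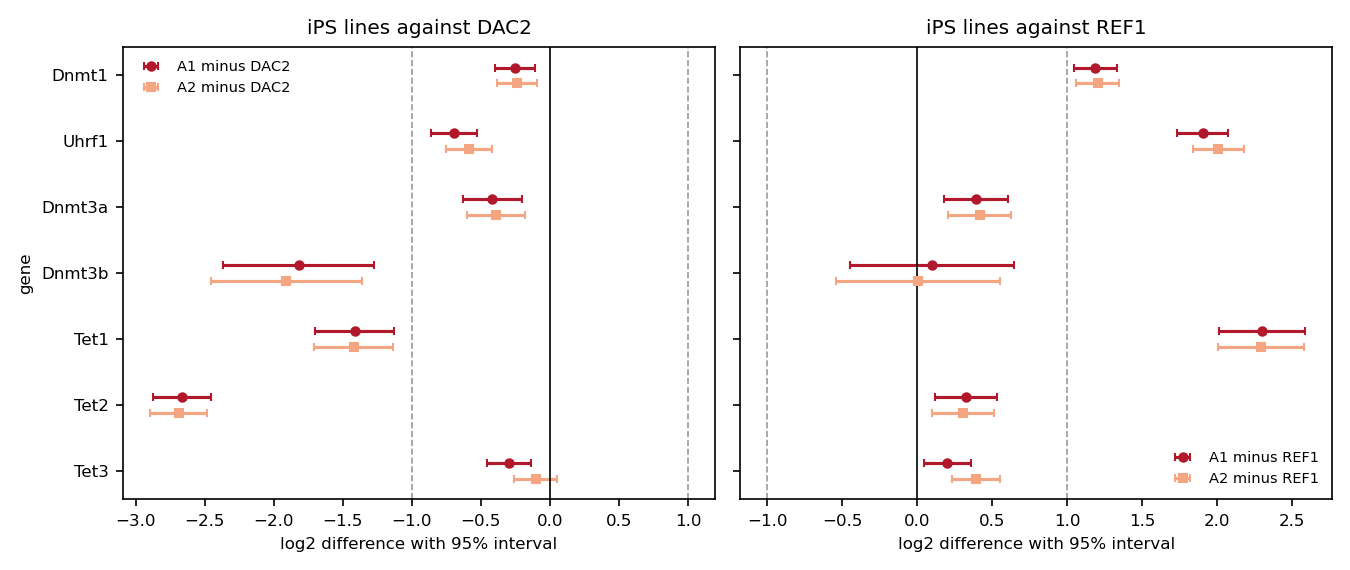
Differences of A1 and A2 from DAC2 (left) and from REF1 (right) for each gene, in log2 units with the 95% interval of the 6-line fit, and dashed lines at 2-fold. Dnmt3b, Tet1 and Tet2 lie beyond 2-fold below DAC2, whereas Uhrf1, Dnmt1 and Tet1 lie beyond 2-fold above REF1, and Tet1 is the gene on both sides.

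Between the lines labelled ES, DAC2 was higher than DAC8 in 6 of 7 genes (19.8% of all genes), all but Tet3, whose difference was 0.67. DAC2 was higher than REF1 in 5 genes (20.1% of all genes), with Dnmt3a at 0.81 and Tet3 at 0.50. Between the cultures labelled EF, REF1 was lower than REF2 in all 7 (20.7%), and DAC8 was lower than REF2 in all 7 (20.3%), with the loss of Tet3 under the mean of probe sets given above. Each of these counts includes Dnmt3b, which passed the filter only through DAC2 and REF2 and is among them as a description.

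The pairs with 0 called genes besides A1 and A2 crossed the cell type labels. Between DAC2 and REF2 none of 7 was called, beside 4% of all genes, although limma gave 4 an unadjusted p under 0.05 (Uhrf1 -0.21, Dnmt3a -0.92, Tet2 -0.29 and Tet3 -0.63), as it did 52.9% of all genes. Between DAC8 and REF1 none was called, beside 1.53%, and 3 had an unadjusted p under 0.05 (Dnmt3a -0.28, Tet2 -0.21 and Tet3 -0.17), as did 33.5% of all genes.

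**Figure D4:**
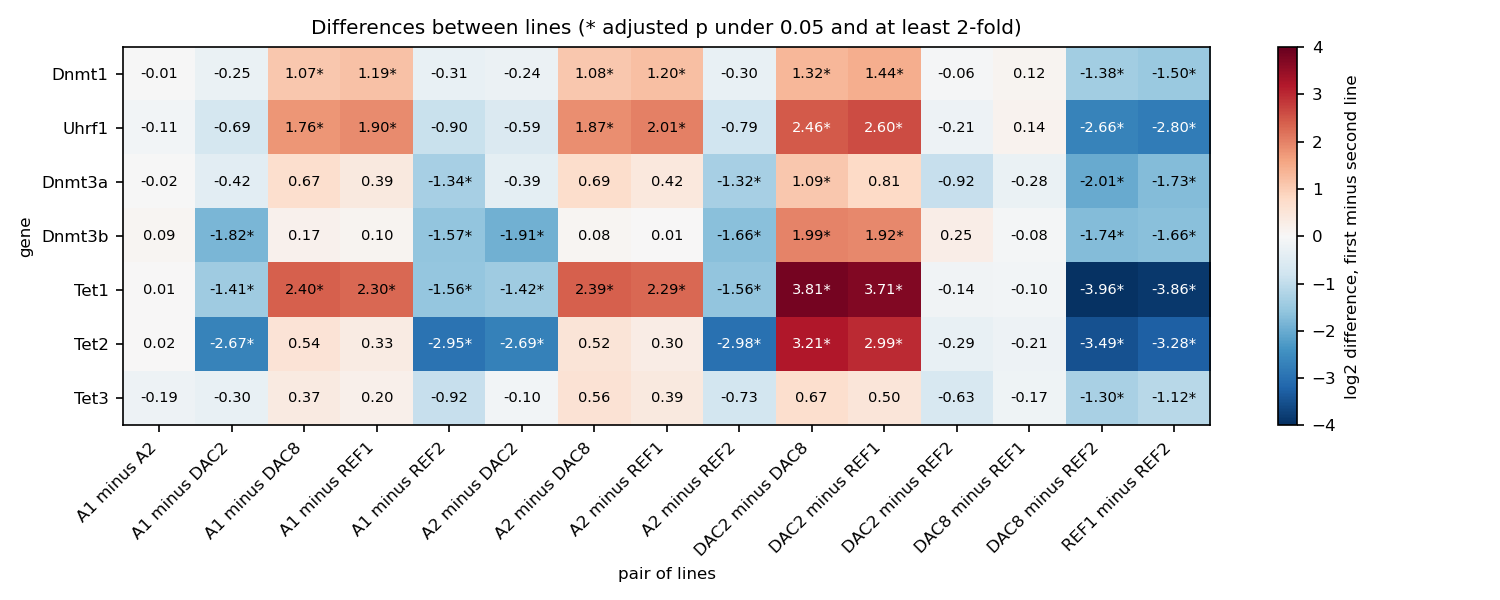
Difference (log2 units, first minus second line) of each gene (rows) in each of the 15 pairs of lines (columns), coloured from blue (lower in the first) to red (higher), with an asterisk for calls. No asterisk stands in the columns A1 minus A2, DAC2 minus REF2 and DAC8 minus REF1, and 7 stand in DAC8 minus REF2 and in REF1 minus REF2.

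Compared by labelled cell type, with the line as the replicate, the group showed no called difference. In limma on line means (2 lines per cell type), 0 of 7 genes were called for iPS minus ES, beside 2.26% of all genes, 0 for iPS minus EF, beside 2.53%, and 0 for ES minus EF, beside 0%. None of the 21 tests had an unadjusted p under 0.05 in limma. Over all genes 14.4% had one for iPS minus ES, 15.1% for iPS minus EF and 0.227% for ES minus EF. With the line as a random block in limma the counts were also 0. The intervals were wide. Tet1 differed by 0.49 between iPS and ES, with an interval from -4.46 to 5.44, and Tet2 by -1.07, from -5.27 to 3.12. The least wide was Tet3, at 0.13 from -1.18 to 1.45. On simulated arrays with the real spread, line means recovered 0% of changes of 2 units and 28% of changes of 4 units for iPS minus ES. Recovery depends on how far a gene varies between lines of 1 type, and over all genes 249 and 278 were called for iPS minus ES and iPS minus EF.

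Without the lines labelled DAC8 and REF2, on single arrays, the counts became 3 for iPS minus ES (Dnmt3b, Tet1 and Tet2 lower), 3 for iPS minus EF (Uhrf1, Dnmt1 and Tet1 higher) and 5 for ES minus EF. Over all genes 29.8%, 32.7% and 41% were called in either direction in that fit. There, Tet1 was -1.42 against ES and 2.29 against EF. Dnmt3b, which passed the filter only through DAC2 and REF2, is counted for iPS minus ES and ES minus EF as a description. The cell types ES and EF then hold a single line each, and the arrays stand as replicates though they may share a culture. These values and counts therefore compare lines and not cell types.

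Some of the genes had nearly the same shape over the 6 line means, which is given as a description over 6 points that share arrays and normalization. The points are also alike in pairs, with mean array correlations of 0.9943 for A1 and A2, 0.9753 for DAC2 and REF2 and 0.9875 for DAC8 and REF1. High values therefore come easily, and the share of all gene pairs that reach them was not counted. Uhrf1 had a Pearson correlation of 0.995 with Dnmt1 and 0.991 with Tet1. Dnmt3b had 0.986 with Tet2, and Dnmt3a 0.991 with Tet3. The lowest of the 21 correlations was that of Dnmt1 with Dnmt3b, at 0.675. Genes of 1 role were not always the most alike, since Dnmt3a and Dnmt3b correlated at 0.811 and Tet1 and Tet2 at 0.861.

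Beyond the group, the genes most like each member with a span of at least 2 units were found by the same measure over the 6 line means. For Uhrf1 they were Paip2b, Orc5 (a subunit of the origin recognition complex) and Gca, with correlations of 0.999, 0.999 and 0.999. For Tet1 they were Wdr91, Dennd2c and Ahi1, at 0.999, 0.999 and 0.998. For Tet2 they were Gbx2, Hhex (both homeobox factors) and Usp28, at 0.999, 0.999 and 0.998, and Gbx2 read 4.11 in A1, 9.30 in DAC2, 3.29 in REF1 and 9.47 in REF2. For Dnmt3a they were Acsl1, Gzmm and S100a13, at 0.988, 0.986 and 0.985.

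The median of the S phase genes had the same order of lines as the maintenance genes. Not every gene of the list did, as Rrm1 read 10.14 in A1 and 10.18 in A2 against 9.52 in DAC2 and 9.48 in REF2. The median of 16 S phase genes was 9.02 in A1, 9.03 in A2, 9.70 in DAC2, 8.26 in DAC8, 8.0 in REF1 and 9.72 in REF2. Of the 16, 9 were called higher and 0 lower in A1 than in REF1 (16.5% and 16.3% of all genes), 12 and 0 in DAC2 than in REF1 (20.1% and 20.9%), and 0 and 4 in A1 than in DAC2 (16.6% and 13.2%). Chek1, the replication checkpoint kinase, was 2.35 units higher in A1 than in REF1 and 2.80 higher in DAC2. Pola1, the catalytic subunit of the polymerase that primes replication, was 1.69 and 2.57 higher, and Mcm5 of the replicative helicase and the licensing factor Cdt1 differed by -1.41 and -1.17 between A1 and DAC2. The part of S phase genes in the Uhrf1 and Dnmt1 differences was not tested. The 3′ to 5′ difference of the actin control probe sets, a measure of RNA or labelling quality, was 0.42 to 0.52 on the arrays of DAC8 and REF1 and 0.84 to 1.05 on the others, and its part was not tested.

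**Figure D5:**
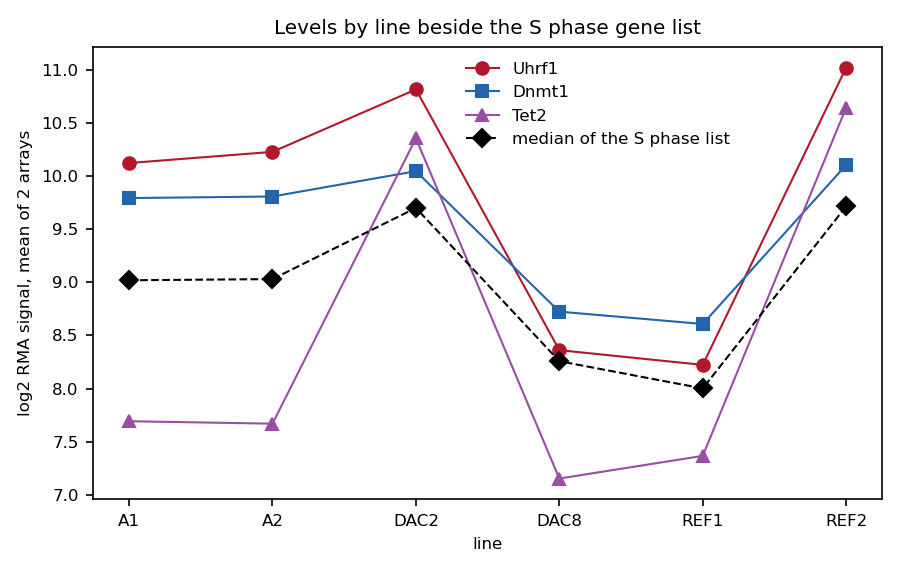
Line means of Uhrf1, Dnmt1 and Tet2 and the median of 16 S phase genes (log2 RMA signal, vertical axis) by line (horizontal axis), with lines drawn only to join points. Uhrf1 and Dnmt1 follow the S phase median, with A1 and A2 between DAC2 and REF1, whereas Tet2 in A1 and A2 (7.69 and 7.67) lies near DAC8 and REF1.

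Of 10 partners and regulators of methylation, 2 were called higher and 1 lower in A1 than in REF1 (16.5% and 16.3% of all genes). The counts were 1 and 1 in A1 against DAC2 (16.6% and 13.2%), and 5 and 0 in DAC2 against REF1 (20.1% and 20.9%). Their median differences were 0.66, -0.31 and 0.99, against 0.12, -0.07 and 0.18 over all genes. Cdca7, which with the remodeller Hells opens nucleosomes for methylation, read 10.51 in A1, 9.47 in DAC2 and 7.42 in REF1. It was 3.09 ± 0.07 units higher in A1 than in REF1, and its excess over DAC2, 1.04, fell to 0.94 with arrays shifted to equal medians. Hells was 1.32 higher in A1 and 1.95 higher in DAC2 than in REF1. Zfp57, the zinc finger protein that protects methylation at imprinted regions, was lower in A1 than in both, with differences of -2.02 from DAC2 and -1.12 from REF1.

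Readers of methylated CG pairs were mixed. Of 7 tested, 2 were higher and 1 lower in A1 than in DAC2 (16.6% and 13.2% of all genes). The counts were 1 and 3 in A1 against REF1 (16.5% and 16.3%), and 0 and 3 in DAC2 against REF1 (20.1% and 20.9%). Mbd2, a subunit of the NuRD repressor complex, was 1.14 higher in A1 than in DAC2 and lower in DAC2 than in REF1 (-2.29). Zbtb38 read 5.29 in A1, 7.36 in DAC2 and 7.87 in REF1, and Zbtb4 read 5.62, 5.70 and 8.40. Both are zinc finger proteins that bind methylated DNA. Mbd5 was 1.93 higher in A1 than in DAC2 with both levels near or under 5. It passed the filter only through A1 and A2, so this is a description. Mbd1 was 1.02 higher in A1 than in REF1. That call was lost with equal medians (0.98) and without A1 replicate 1 (0.97) or REF1 replicate 2 (0.94).

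In the excision and repair of oxidised bases, Tdg, the glycosylase that removes the products of TET oxidation, read highest in the iPS lines. Its level was 10.64 in A1 and 10.59 in A2, against 8.61 in DAC2, 8.49 in DAC8, 8.77 in REF1 and 8.57 in REF2, and the difference of A1 from DAC2 was 2.03 ± 0.06 (limma adjusted p = 1.61e-09). Gadd45b, a stress-induced protein linked to demethylation, read 6.67 in A1 and 6.13 in A2, against 9.40 in DAC2 and 10.92 in REF1. Parp1 was 2.35 higher in A1 and 2.42 higher in DAC2 than in REF1, Ung was 1.91 higher in DAC2 than in REF1, and Gadd45g differed by -1.07 there. Of 10 tested, 1 was higher and 1 lower in A1 than in DAC2 (16.6% and 13.2% of all genes). The counts were 3 and 1 in A1 against REF1 (16.5% and 16.3%), and 3 and 2 in DAC2 against REF1 (20.1% and 20.9%).

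Of 6 cofactors and partners of the TET enzymes, 3 were higher and 0 lower in A1 than in DAC2 (16.6% and 13.2% of all genes). The counts were 2 and 0 in A1 against REF1 (16.5% and 16.3%), and 1 and 1 in DAC2 against REF1 (20.1% and 20.9%). Cxxc4, a CXXC protein that binds TET2 and lowers its protein level, read 5.71 in A1 and 6.63 in A2 and from 2.89 to 3.32 in the other lines. Cxxc4 passed the filter only through A1 and A2, so its values are a description, also where it is counted as higher in A1. Idh1, which makes the TET cosubstrate 2-oxoglutarate, was 1.46 higher in A1 than in DAC2 and differed by -1.58 between DAC2 and REF1, calls lost with the mean of probe sets (0.82 and -0.94). Ogt, the glycosyltransferase that binds TET proteins, was 1.08 higher in A1 and 1.41 higher in DAC2 than in REF1, and the first call was lost with the mean of probe sets (0.71).

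Among 6 genes of methyl donor supply, 1 was higher and 1 lower in A1 than in DAC2 (16.6% and 13.2% of all genes). The counts were 1 and 1 in A1 against REF1 (16.5% and 16.3%), and 2 and 0 in DAC2 against REF1 (20.1% and 20.9%). Mat2b, the regulatory subunit of methionine adenosyltransferase, was lower in A1 than in DAC2 (-2.22) and REF1 (-1.44). Ahcy, which clears the methyltransferase inhibitor S-adenosylhomocysteine, was 1.15 higher in A1 than in REF1 and 1.01 higher in DAC2, the latter lost with quantile normalization (0.98) and without REF1 replicate 2 (0.97). Mtrr was 1.42 higher in DAC2 than in REF1. Ahcyl1 was 1.01 higher in A1 than in DAC2, which was lost with equal medians (0.92), the mean of probe sets (0.92) and without A1 replicate 1 (0.98).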

How the data were processed

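RNA samples for 12 arrays, 2 per line, were amplified, biotin-labelled and read on single-colour Affymetrix arrays, per the labels' protocols. The deposited values are log2 signals made by the authors with RMA and Partek 6.2, per the submitters' processing notes, and were used as deposited. RMA compresses differences of dim genes. Of 31099 probe sets, 20832 had 1 gene symbol, 436 several and 9831 none (57 were array controls). Symbols were matched to RefSeq genes of GRCr8 and 0 changed.

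Genes were kept where the highest line mean reached 5, which left out 3217. Fits used limma 3.58.1 (R 4.3.3), with the 6 lines as factor and, for cell types, line means. For A1 minus DAC2, a simulation of 11001 genes held only the spread between arrays and the changes added in A1. Calls of at least 2-fold recovered 50% of changes of 1 log2 unit, which is the cut itself, and 100% of changes of 2. False calls were 0% with that cut and 5.38% at an adjusted p under 0.05 alone. No spread between lines was simulated there, so these shares do not say how far lines differ without a change.

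The members, lists and tests were chosen with earlier results of these data known. Named beside the members were, from each list, at most 2 called genes per direction in A1 minus DAC2, A1 minus REF1 and DAC2 minus REF1, and the 3 genes most correlated with each member spanning 2 units. Alternatives changed the filter, normalization, probe set choice, call rule, fit and arrays or lines used. Those without DAC8 and REF2 in the fits by line were added after the data were seen.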

Additional observations from a re-analysis of the deposited data

How the results depend on the processing

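The counts of 7 genes differing among the lines, 51 calls over the 15 pairs and 9 of 10 probe sets moved by less than 1.5 times under every alternative run, other than the call rule, where pairs of lines left in a fit are compared with the same pairs. With the mean of probe sets the first 2 were 6 and 49, and without the lines labelled DAC8 and REF2 they were 5 and, over the pairs left, 17, the number these pairs held before. At an adjusted p alone, the 51 calls became 83, beside 68.8% of all gene and pair combinations. The counts per pair became 7 for A1 minus DAC2 and A1 minus REF2, 6 for A1 minus DAC8 and A1 minus REF1, 6 for A2 minus DAC2, A2 minus DAC8 and A2 minus REF1, 7 for A2 minus REF2 and 4 for DAC2 minus REF2. The share of all genes at that cut was 77.7% to 79.4% where an iPS line was compared with another line and 45.7% for DAC2 minus REF2. Replicate numbers paired the arrays weakly in some lines and not in most (the 15 correlations between lines ran from -0.08 to 0.24, and 3 were over 0.1). With the replicate block the counts were 7, 51 and 9. Leaving out arrays or lines in turn gave 0 to 1 calls for DAC2 minus REF2. With arrays shifted to equal medians, Tet1 in A1 minus A2 changed sign to -0.0012 and Dnmt3b in A2 minus REF1 to -0.028.

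Differences between lines that changed sign with 1 array left out were those under the 2-fold minimum, and their lowest and highest values follow. In A1 minus A2 these were Dnmt3a -0.14 to 0.093, Dnmt1 -0.038 to 0.0090, Tet1 -0.074 to 0.085, Tet2 -0.13 to 0.17. In A2 minus REF1 these were Dnmt3b -0.33 to 0.34. In A1 minus DAC8 these were Dnmt3b -0.19 to 0.54. In A2 minus DAC8 these were Dnmt3b -0.28 to 0.44. In DAC8 minus REF1 these were Dnmt3b -0.44 to 0.28, Tet1 -0.32 to 0.12. In A1 minus REF1 these were Dnmt3b -0.24 to 0.44. Differences between cell types changed sign with single lines left out. For iPS minus ES they were Dnmt3b -1.86 to 0.13, Tet2 -2.68 to 0.53, Uhrf1 -0.64 to 1.82, Dnmt1 -0.25 to 1.08, Dnmt3a -0.40 to 0.68, Tet1 -1.42 to 2.4, Tet3 -0.20 to 0.47. For ES minus EF they were Dnmt1 -0.72 to 0.78, Dnmt3b -0.91 to 1.08, Uhrf1 -1.43 to 1.37, Tet1 -2.05 to 1.81, Tet2 -1.89 to 1.39, Dnmt3a -1.47 to 0.27, Tet3 -0.96 to 0.16. For iPS minus EF they were Uhrf1 -0.85 to 1.95, Dnmt1 -0.30 to 1.19, Tet1 -1.56 to 2.29, Dnmt3a -1.33 to 0.40, Dnmt3b -1.61 to 0.052, Tet2 -2.97 to 0.31, Tet3 -0.83 to 0.30. Without the lines labelled DAC8 and REF2, members called became 3, 3 and 5 and the following also changed sign. For iPS minus ES these were Uhrf1 -0.64, Dnmt1 -0.25, Dnmt3a -0.40, Tet1 -1.42, Tet3 -0.20. For iPS minus EF these were Dnmt3a 0.40, Dnmt3b 0.052, Tet2 0.31, Tet3 0.30. For ES minus EF these were Uhrf1 2.60, Dnmt3a 0.81, Tet1 3.71, Tet2 2.99, Tet3 0.50. The cause was not tested.

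The number of lines limits the cell type comparisons, and dim signal limits Dnmt3b and the low side of Tet1.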

Other observations

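Germline genes that are known targets of promoter methylation held the largest single difference among the pathway lists. Of 12 listed, 7 had a probe set and 4 were tested. Sycp3, Tex101 and Asz1 passed the filter only through DAC2 and REF2, so their values are a description. Sycp3, a protein of the axis of meiotic chromosomes, had line means of 9.12 in DAC2 and 9.93 in REF2, against 3.28 in A1, 3.09 in A2, 3.39 in DAC8 and 3.0 in REF1, and the difference of A1 from DAC2 was -5.84. Tex101 read 5.54 in DAC2 and 5.49 in REF2 and between 3.75 and 4.32 elsewhere, and Asz1 read 5.81 and 5.35 there and between 3.53 and 3.74 elsewhere. Tdrkh, a partner of piRNA proteins, differed from these in being present in the iPS lines, at 5.80 in A1 and 5.86 in A2, beside 6.41 in REF2 and 5.14 in DAC2, while REF1 read 3.36 and DAC8 3.83. No methylation was measured, and any link of these levels to the methylation enzymes was not tested.

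Of the other marker lists, 6 trophoblast genes had a median level of 6.54 in DAC2 and 6.08 in REF2, against 4.95 in A1, 4.93 in A2, 4.21 in DAC8 and 4.13 in REF1. The members were mixed. Cdx2 and Eomes were far higher in DAC2 and REF2 than elsewhere, and Tfap2c was high in A1 and A2 too (8.89 and 8.84). Gata3 went the other way, at 7.65 in A1 and 7.71 in A2 against 2.93 in DAC2 and 2.67 in REF2. Hand1 was nearly level and Elf5 was under the filter level. Of 5 primitive endoderm genes 2 were tested, and 1 was higher in A1 than in DAC2 (16.6% of all genes) and in A1 than in REF1 (16.5%). Of 3 blood genes with a probe set 2 were tested. In A1 minus DAC2, A1 minus REF1 and DAC2 minus REF1 limma called 0 of them, beside the shares of all genes given above for these pairs.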
